A study of Mus musculus with 12 samples.

Results

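*Ankib1*, *Arfgef1*, *Ehbp1*, *Eml2*, *Adamts4* and *Enpp2* encode proteins of membrane trafficking, ubiquitin transfer, the cytoskeleton and the extracellular space. These 6 genes were chosen by their lower mRNA level in the hypothalamus of HFD-fed *Gpr75*-/- mice, so their HFD values are given as a description and support nothing. All 6 were found among the 16438 genes listed on both diets. All 6 are also among the 16002 genes with a mean of at least 25 normalized counts on each diet, which are called the genes kept. Hypothalamus RNA came from 12 male mice in 4 groups of 3, with each genotype, WT (+/+) or *Gpr75*-/-, fed either chow or a HFD. The HFD began at 6 weeks of age and lasted 2 weeks, so those mice were 8 weeks old. The *Gpr75*-/- allele is a germline CRISPR/Cas9 change made in C57BL/6J mice that ends translation early in every cell. Its mRNA can still be made, and the level of *Gpr75* mRNA therefore does not check the genotype labels.

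The values used are the authors' mean of each group of 3 mice and their mean normalized count over the 6 mice of a diet. No value of a single mouse, and so no SD, standard error or test between mice, is given here for any gene. Each group mean was turned into a level in ppm (parts per 1000000), which is the share of a gene in the level summed over all genes listed on that diet, multiplied by 1000000. That the deposited means are the log2 of a log2 level was inferred from their relation to the mean counts. A difference is the log2 level in *Gpr75*-/- mice minus that in WT mice. The ranges in parentheses cover only the rounding of the deposited means to 2 decimals, not the spread between mice. Summed over genes, the mean normalized counts came to 18280462 in the chow table and 19420111 in the HFD table. These counts had been divided by size factors, so the sums do not give the depth of any mouse. All 12 hypothalamic genes of a marker list, from *Pomc* and *Agrp* to *Nkx2-1*, were among the genes kept, as the tissue label would have it. *Gpr75* itself had a level of 16.8 ppm in WT and 24.7 in *Gpr75*-/- mice on chow, and of 20.0 and 18.6 on the HFD.

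ANKIB1 belongs to the RING-between-RING ubiquitin ligases, which take ubiquitin onto themselves before passing it to a substrate. ARFGEF1 loads GTP onto ARF proteins, small GTPases that recruit coats to Golgi membranes, and EHBP1 joins endocytic recycling membranes with their EHD and RAB8-family proteins to actin. EML2 is a microtubule-binding protein of the EMAP-like family. ADAMTS4 is a secreted protease that cuts the lecticans, the large proteoglycans of brain matrix. ENPP2, or autotaxin, is a secreted enzyme that makes the lipid mediator lysophosphatidic acid. *Enpp2* is known for high expression in choroid plexus epithelium and in oligodendrocytes, and *Adamts4* for expression in oligodendrocytes.

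The stretches before the starts of *Ehbp1* and *Eml2* are shown because these genes had the most alike pair of genotype differences among the 6. They are the 120 bases just before each RefSeq start on build GRCm38.p6, written 5′ to 3′ on the gene's strand, with capitals for a GC box (GGGCGG) or a CCAAT box (CCAAT) on either strand. The *Ehbp1* start and the second *Eml2* start lie inside the genes as GENCODE M21 places them on that build, while the first *Eml2* start is at the outer end.
Ehbp1, chr11:22286796-22286915, minus strand: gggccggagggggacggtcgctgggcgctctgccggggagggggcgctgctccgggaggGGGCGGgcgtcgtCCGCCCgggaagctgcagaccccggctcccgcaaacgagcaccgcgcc
Eml2, start 1, chr7:19176301-19176420, plus strand: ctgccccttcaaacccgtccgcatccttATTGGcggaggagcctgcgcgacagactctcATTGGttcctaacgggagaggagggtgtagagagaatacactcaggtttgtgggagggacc
Eml2, start 2, chr7:19181050-19181169, plus strand: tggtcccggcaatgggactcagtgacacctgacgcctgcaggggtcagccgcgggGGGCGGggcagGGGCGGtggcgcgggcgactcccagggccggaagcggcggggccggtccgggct

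Of the 6 genes, 3 had such windows, and *Ankib1* was the third. The search covered 250 bases before each start. *Ehbp1* held 4 GC boxes, *Eml2* none at its first start and 2 at its second, and *Ankib1* 1, and 32.7% of all 32851 windows of that length held at least 1. The first start of *Eml2* held 2 CCAAT boxes, which no other of these windows held and 33.8% of all windows did. The SOX core (ACAAAG) was found once, before the second start of *Eml2*, against 16.5% of all windows. The TATA box (TATAAA) and the E box (CACGTG) were not found in these windows, and 12.4% and 6.02% of all windows held them. GC content was 76.8% for *Ehbp1*, 64.8% for *Ankib1*, and 54.0% and 61.2% for the starts of *Eml2*, against a median of 52.4%. These letters describe the windows alone.

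*Ehbp1* and *Eml2* had the lowest *Gpr75*-/- levels on the HFD relative to WT. *Ehbp1* (ENSMUSG00000042302, chromosome 11, 21955828 to 22292292) was at 42.7 ppm in WT and 30.8 in *Gpr75*-/- mice on the HFD, and at 50.0 and 47.0 on chow. Its ratio of *Gpr75*-/- to WT was 0.722 on the HFD (rounding range 0.701 to 0.743) and 0.939 on chow (0.909 to 0.969). *Eml2* (ENSMUSG00000040811, chromosome 7, 18910346 to 18940407) was at 69.5 in WT and 50.0 in *Gpr75*-/- mice on the HFD, and at 95.6 and 88.9 on chow. Its ratio was 0.719 on the HFD (0.696 to 0.743) and 0.930 on chow (0.897 to 0.965). On each diet the level of both genes was lower in *Gpr75*-/- mice, by a smaller amount on chow. As a description of the values that chose them, 100 of the 16002 genes kept had a HFD difference as low as that of *Eml2* and 104 one as low as that of *Ehbp1*, themselves included.

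*Ankib1* and *Arfgef1* had smaller differences than *Ehbp1* and *Eml2* on the HFD, but not on chow. *Ankib1* (ENSMUSG00000040351, chromosome 5, 3740000 to 3852925) was at 77.1 ppm in WT and 65.0 in *Gpr75*-/- mice on the HFD, and at 74.5 and 67.3 on chow. The ratio was 0.842 (0.814 to 0.872) on the HFD and 0.902 (0.872 to 0.934) on chow. *Arfgef1* (ENSMUSG00000067851, chromosome 1, 10207796 to 10302895) was at 92.1 and 77.1 on the HFD, and at 103 and 95.6 on chow. The ratio was 0.837 (0.808 to 0.868) on the HFD and 0.929 (0.896 to 0.964) on chow. Neither gene reached on chow the ratio it had on the HFD, although the chow and HFD rounding ranges of *Ankib1* met at 0.872.

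The secreted enzymes differed from each other on chow. *Adamts4* (ENSMUSG00000006403, chromosome 1, 171077990 to 171088206) was at 45.5 ppm in WT and 34.6 in *Gpr75*-/- mice on the HFD, and at 44.1 and 36.8 on chow. The ratio was 0.762 (0.739 to 0.785) on the HFD and 0.833 (0.808 to 0.859) on chow, the lowest chow ratio of the 6 genes. *Enpp2* (ENSMUSG00000022425, chromosome 15, 54702297 to 54816288) was at 336 in WT and 294 in *Gpr75*-/- mice on the HFD, and at 307 and 464 on chow. The ratio was 0.875 (0.837 to 0.915) on the HFD, the least change of the 6, and 1.51 (1.44 to 1.58) on chow. *Enpp2* was thus the gene whose group mean lay in opposite directions on the diets.

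**Figure D1:**
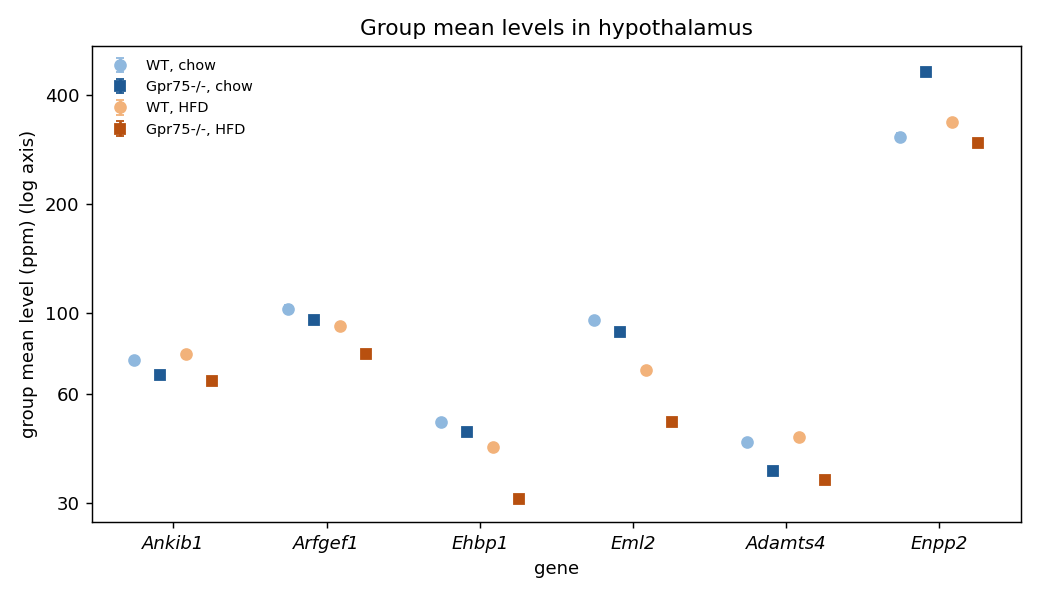
Level in ppm (vertical log axis) of each of the 6 genes in the 4 groups, with circles for WT, squares for Gpr75-/-, blue for chow and orange for HFD. Each symbol is the authors' mean of 3 mice, and bars for the rounding range are no larger than the symbols. On the HFD each Gpr75-/- square lies below its WT circle, and on chow Enpp2 is the 1 gene whose square, at 464, lies above its circle, at 307.

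On the HFD all 6 genes were lower in *Gpr75*-/- mice by at least 1.1-fold, which the choice of members fixes, and 10.9% of genes kept were lower by that much. The chow samples were not used in the choice. There, 2 of the 6 genes, *Adamts4* and *Ankib1*, were lower by at least 1.1-fold, against 14.7% of genes kept, and *Enpp2* was higher by at least that fold, against 14.6%. The group means of *Arfgef1*, *Ehbp1* and *Eml2* on chow were lower by less than 1.1-fold. In all, 5 of the 6 genes had a lower *Gpr75*-/- mean on chow, with rounding ranges wholly below 0, against 35.5% of all genes kept. The median difference of the 6 genes was -0.32 on the HFD and -0.10 on chow, and that of all genes kept was 0.00 on each diet. Between the 5th and 95th percentiles, the differences of genes kept ran from -0.22 to 0.24 on the HFD and from -0.26 to 0.27 on chow. On chow *Adamts4* lay at percentile 4.95 of genes kept, *Ankib1* at 13.2, *Arfgef1* at 19.4, *Eml2* at 19.6 and *Ehbp1* at 22.3. Apart from *Adamts4* and *Enpp2*, the chow differences of the 6 genes were within the range that most genes showed, and whether they exceed the spread between mice was not tested.

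The HFD difference minus the chow difference was negative for each of the 6 genes. It was -0.38 (rounding range -0.47 to -0.29) for *Ehbp1*, -0.37 (-0.47 to -0.27) for *Eml2* and -0.79 (-0.92 to -0.66) for *Enpp2*. For *Arfgef1* it was -0.15 (-0.25 to -0.05), for *Adamts4* -0.13 (-0.22 to -0.04) and for *Ankib1* -0.10 (-0.20 to 0.00). Choosing genes for a low value on the HFD favours a negative difference here, and without values of single mice it was not tested.

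**Figure D2:**
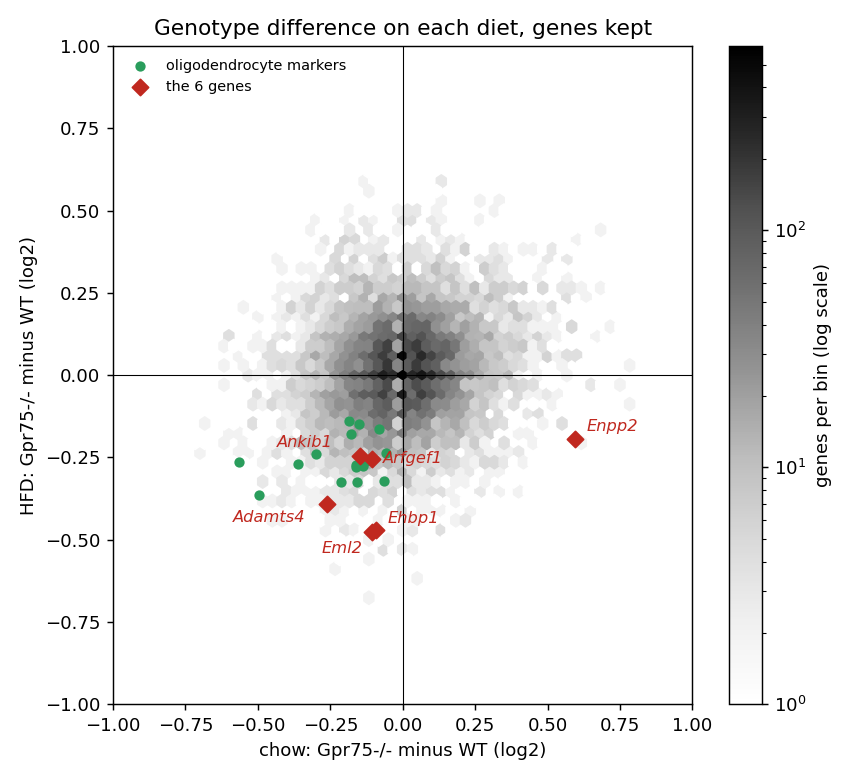
Difference of the group means, Gpr75-/- minus WT (log2), on chow (horizontal) and on the HFD (vertical) for the genes kept, shaded by the number of genes per bin between -1 and 1. Red diamonds are the 6 genes and green points the 16 oligodendrocyte markers. Ehbp1 and Eml2 lie together near -0.10 on chow and -0.48 on the HFD, and Enpp2 lies apart at 0.60 on chow.

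Levels of the diets come from tables that were normalized separately, so the WT values stand side by side without a test. *Eml2* was at 95.6 ppm in WT mice on chow and 69.5 on the HFD, and *Ehbp1* at 50.0 and 42.7. *Arfgef1* was at 103 and 92.1, *Ankib1* at 74.5 and 77.1, *Adamts4* at 44.1 and 45.5, and *Enpp2* at 307 and 336. The lowest of the 4 group means was that of HFD-fed *Gpr75*-/- mice for each of the 6 genes. Choosing genes for a low level in that group favours this order. For *Ankib1* the rounding range of that mean (63.9 to 66.1) met that of chow-fed *Gpr75*-/- mice (66.1 to 68.4). Per kilobase of exons, the HFD level in WT mice was 58.1 ppm for *Enpp2* and 19.7 for *Eml2*. It was 9.45 for *Adamts4*, 9.03 for *Ankib1*, 8.14 for *Arfgef1* and 7.34 for *Ehbp1*. These 4 lie close together, and their order was not tested. By length of the gene on the chromosome, *Ehbp1* spans 336 kb (percentile 97.2 of genes kept), *Enpp2* 114 kb, *Ankib1* 113 kb, *Arfgef1* 95.1 kb, *Eml2* 30.1 kb and *Adamts4* 10.2 kb, against a median of 21.3 kb, so the 6 genes do not share a length class.

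The *Enpp2* value on chow went with a high excess, a measure read from the mean over mice. Where mice of a group differ widely, the plain mean over mice lies above the level given by means taken on a log scale. For *Enpp2* on chow, the mean of 8391 normalized counts over the 6 mice was 1.19-fold above the level from the group means (log2 excess 0.25, rounding range 0.22 to 0.28). Only 18 genes kept had as high an excess, itself included, and the 5th to 95th percentiles ran from -0.014 to 0.027. On the HFD the excess of *Enpp2* was -0.01. The other 5 genes had an excess between -0.02 and 0.01 on chow and between 0.01 and 0.02 on the HFD, within or near the range of most genes. How *Enpp2* differed between single chow mice, and in which genotype, was not tested.

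Markers of choroid plexus were also higher with *Enpp2* on chow. Of the 10 genes of that marker list, 6 were kept, and 5 of these were higher by at least 1.1-fold in *Gpr75*-/- mice on chow, with a median of 0.81, against 14.6% of all genes kept. The other 4 were listed on chow alone and lay near the floor in WT mice, so that they could only be higher. The summed level of all 10 was 87.3 ppm in WT and 123 in *Gpr75*-/- mice on chow. *Ttr*, which encodes transthyretin, was at 5.63 and 13.0 with an excess of 17.09-fold, and *Kl*, which encodes the membrane protein klotho, was at 6.69 and 16.0 with an excess of 1.71-fold. *Aqp1*, *Kcnj13* and *Slc4a5* were at 1.01 in WT mice, the floor of the deposited scale. *Prlr*, the prolactin receptor gene, was at 42.8 and 45.5 with an excess of 1.01-fold. On the HFD, 6 of the 10 were in the table, with a summed level of 79.6 in WT and 84.2 in *Gpr75*-/- mice. There, *Ttr* was at 3.62 in WT and 1.36 in *Gpr75*-/- mice and *Otx2*, a transcription factor gene, at 5.53 and 4.50. *Kl* was at 7.19 and 8.05, *Prlr* at 41.4 and 46.9, *Clic6* at 19.0 and 20.5 and *Sostdc1* at 2.84 and 2.81, so that 2 of the 6 were lower and 2 higher by at least 1.1-fold, against 10.9% and 13.9% of all genes kept. *Folr1*, *Aqp1*, *Kcnj13* and *Slc4a5* were not listed. The part of choroid plexus RNA in the *Enpp2* values was not tested.

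**Figure D3:**
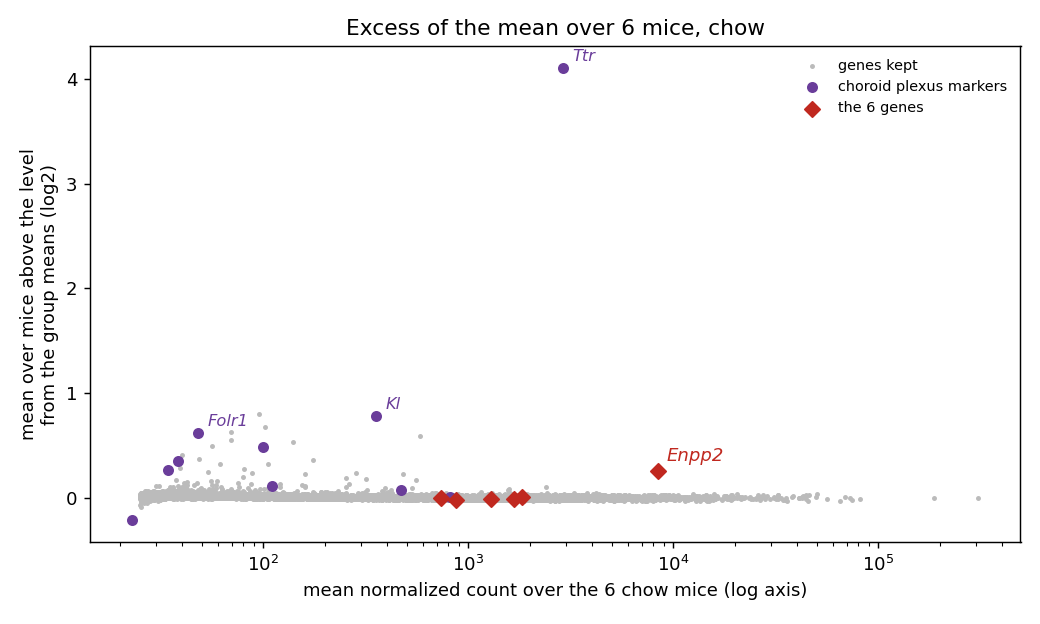
Excess on chow (vertical, log2), the amount by which the mean over the 6 mice lies above the level from the group means, against the mean normalized count (horizontal log axis). Grey points are genes kept, purple points the 10 choroid plexus markers and red diamonds the 6 genes. Enpp2 lies at 0.25, below Ttr at 4.10, while the other 5 genes lie between -0.02 and 0.01.

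Oligodendrocyte genes were lower in *Gpr75*-/- mice on each diet, whereas *Enpp2* was higher on chow. Of 16 markers of mature oligodendrocytes, which make myelin, 16 were lower by at least 1.1-fold in *Gpr75*-/- mice on the HFD and 12 on chow, with medians of -0.27 and -0.16, against 10.9% and 14.7% of all genes kept. Their summed level was 13228 ppm in WT and 11312 in *Gpr75*-/- mice on the HFD, and 12516 and 10712 on chow. The largest HFD differences of that list were -0.36 for *Opalin*, -0.33 for *Cldn11*, a tight junction gene of myelin, and -0.32 for *Mog*. *Ehbp1* and *Eml2* had larger HFD differences than each of these markers, the rounding range of *Adamts4* (-0.44 to -0.35) overlapped that of *Opalin* (-0.40 to -0.32), and *Ankib1*, *Arfgef1* and *Enpp2* lay within their range of -0.36 to -0.14. The 6 genes were chosen for low HFD values and the markers were not, which favours this order. On chow the order was otherwise, with *Aspa* at -0.56 and *Opalin* at -0.50 against -0.26 for *Adamts4*. There, *Ehbp1* was at -0.09 and *Eml2* at -0.10, against the marker median of -0.16. Earlier results of these data were known when the list was written, so it is not independent evidence. In whole tissue, fewer cells of a type and less RNA per cell cannot be told apart, and the part of oligodendrocyte RNA in these levels was not tested.

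Lists for other cells of the hypothalamus were read in the same way on the HFD. Precursors of oligodendrocytes had 5 of 8 genes lower, against 10.9% of all genes kept, and 1 higher, with a median of -0.17, *Pdgfra*, the receptor gene that marks them, being at -0.19. Astrocyte genes had a median of 0.03 with 3 of 8 higher, the largest at 0.19 for *Agt*, the angiotensinogen gene. Microglia genes had 1 of 8 higher (*C1qa*, 0.18), neuron genes 0 of 8 in either direction, and endothelial genes 1 of 8 higher (*Tek*, 0.18), each list with a median of -0.05. Hypothalamic peptide and transcription factor genes had 10 of 12 higher, with a median of 0.35 and the feeding peptide genes *Agrp* (0.58), *Npy* (0.47) and *Pomc* (0.46) at the top, against 13.9% of all genes kept that were higher by at least 1.1-fold on the HFD. On chow, the lists of astrocyte, microglia, neuron, endothelial and hypothalamic genes had medians between -0.07 and 0.06 and the precursors a median of -0.06.

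The relatives of the 6 genes were not chosen for their HFD values. Lists of relatives, partners and substrates held 108 genes kept besides the 6, of which 11 (10.2%) were lower and 9 higher by at least 1.1-fold on the HFD, with a median of 0.00. On chow, 13 of the 108 (12.0%) were lower and 7 higher. These shares stand beside 10.9% and 14.7% of all genes kept that were lower on the HFD and on chow. Of all genes kept, 13.9% were higher on the HFD and 14.6% on chow.

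*Ankib1* was the 1 lower gene among 14 RING-between-RING ligases on the HFD. The choice of *Ankib1* fixes that it was lower, and 10.9% of all genes kept were lower by at least 1.1-fold. None of the other 13 differed by 1.1-fold in either direction, *Rnf217* being at 0.11. *Arih1* and *Arih2*, ligases of the ariadne branch like ANKIB1, were at -0.05 and 0.00 on the HFD, and at 0.21 and 0.09 on chow. Among 13 ARF exchange factors, *Arfgef1* (-0.26) and *Psd3*, which encodes an exchange factor for ARF6 (-0.16), were lower on the HFD. Without *Arfgef1*, chosen for being lower, that is 1 of 12, against 10.9% of all genes kept. *Arfgef2*, the closest relative of *Arfgef1*, was at 71.9 ppm in WT and 67.2 in *Gpr75*-/- mice, a difference of -0.10 on the HFD and -0.05 on chow. Of 14 ARF and coat genes, *Ap1g1*, which encodes a subunit of the AP-1 clathrin adaptor that ARF proteins recruit, was lower (-0.15) and *Gga1*, another such adaptor gene, was higher (0.14).

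*Ehbp1* was likewise the 1 lower gene of 19 in its recycling list on the HFD, which its choice fixes. Of all genes kept, 10.9% were lower and 13.9% higher. The other 18 ran from -0.06 to 0.27, and *Ehd2*, an EHD family ATPase gene (0.27), *Mical1*, an actin oxidase gene (0.17), and 1 more were higher. The last was *Ehd4* (0.16), named here after its value was seen. *Ehbp1l1*, the paralog of *Ehbp1*, was at 24.0 and 23.4 ppm on the HFD, a difference of -0.04. *Rab8a*, *Rab8b* and *Rab10*, genes of RAB8-family GTPases, were at 0.05, -0.05 and -0.06. The EMAP-like family had 6 genes kept. *Eml2* (-0.48), chosen for being lower, and *Eml1* (-0.20) were lower on the HFD, and *Eml3* (0.19) was higher. Without *Eml2*, 1 of 5 was lower and 1 higher, against 10.9% and 13.9% of all genes kept. On chow 2 of the 6 were lower by at least 1.1-fold, against 14.7% of all genes kept, and *Eml2* was not among them. None of 16 microtubule-associated protein genes differed by 1.1-fold on the HFD, the largest difference being -0.13 for *Clasp2*.

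Among the secreted proteases, 15 of 19 *Adamts* genes were kept. Besides *Adamts4*, chosen for being lower, 3 of the other 14 were lower and 3 higher on the HFD. Of all genes kept, 10.9% were lower and 13.9% higher by at least 1.1-fold. *Adamts19* (-0.50) had a mean of only 28.1 normalized counts, and *Adamts2*, which processes procollagen, was at 0.29. *Adamts4* had 45.5 of the 177 ppm that the family summed to in HFD-fed WT mice. Of the lectican genes whose products ADAMTS4 cuts, *Ncan* (neurocan) was at -0.16, *Vcan* (versican) at -0.15, *Bcan* (brevican) at 0.00 and *Acan* (aggrecan) at 0.09 on the HFD. On chow *Acan* was at -0.61, from 4.24 to 2.77 ppm. *Timp3*, a protease inhibitor gene, was at 0.00 on the HFD and 0.18 on chow.

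Of 7 *Enpp* genes, 5 were kept. Besides *Enpp2*, chosen for being lower, 2 of the other 4 were lower on the HFD, against 10.9% of all genes kept. These were *Enpp6*, which encodes a choline-specific phosphodiesterase of newly formed oligodendrocytes, at -0.40, and *Enpp1*, whose product makes pyrophosphate from ATP, at -0.29. *Enpp6* was also lower on chow, at -0.50, where *Enpp2* was at 0.60. *Enpp4* and *Enpp5* were at 0.00 on the HFD. *Lpar1*, a receptor gene for lysophosphatidic acid that oligodendrocytes express, was at 99.0 ppm in WT and 85.7 in *Gpr75*-/- mice, a difference of -0.21 on the HFD, and at -0.10 on chow. *Plpp2*, a lipid phosphatase gene, was at 0.22 and *Lpar6* at -0.08.

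**Figure D4:**
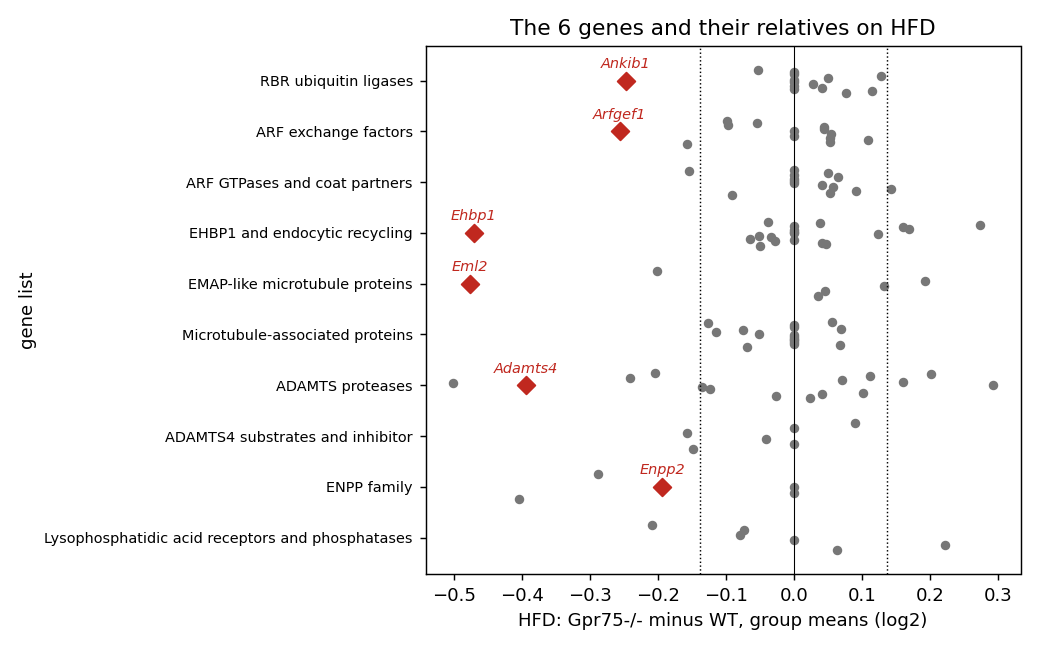
Difference of the group means on the HFD, Gpr75-/- minus WT (horizontal, log2), for the genes kept of 10 lists (vertical). Red diamonds are the 6 genes, grey points their relatives, and dotted lines mark 1.1-fold in each direction. Ankib1 and Ehbp1 are the lone lower genes of their lists, whereas Enpp6 and Enpp1 lie lower than Enpp2. The red genes were chosen for being lower here.

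The genes most like each of the 6 were sought by the distance between their pairs of chow and HFD differences, among protein-coding genes with a mean count within 2-fold. *Ehbp1* and *Eml2* were each other's nearest gene, at a distance of 0.014 among 5322 and 5009 candidates. The next was *Hipk3*, a protein kinase gene, at 0.098 and 0.096, then *Plekhg1* for *Ehbp1* (0.099) and *Tnfaip6* for *Eml2* (0.111). For *Ankib1* the nearest were *Fryl* (0.006), *Usp37* (0.020) and *Lrrc8b* (0.024), and for *Arfgef1* they were *Zfp638* (0.018), *Prkca* (0.021) and *Trim59* (0.022). For *Adamts4*, among 5306 candidates, the nearest were *Slc5a7* (0.084), *Tnfaip6* (0.088) and *Itgav* (0.093). *Enpp2* was set against only 1060 candidates, so its distances do not compare with those of the others, which had 4305 to 5322. Its nearest gene was *Tsc22d3* at 0.196, a gene at 0.56 on chow and 0.00 on the HFD, then *Arrdc3* at 0.327 and *Fam107a* at 0.358. The rounding ranges of about 0.05 either way are wider than the shortest of these distances, so the order of the nearest genes is not fixed. Each distance also rests on 4 group means with no spread between mice, and a short distance is common where many genes lie close together. The 6 genes were chosen for low HFD differences, which enter the distance. That choice itself favours *Ehbp1* and *Eml2* lying close to each other.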

How the data were processed

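Hypothalamus RNA-Seq covered 4 groups of 3 mice, assigned from the labels. The authors prepared libraries from mRNA with a SMART-Seq kit. The submitters' processing notes name STAR, featureCounts, StringTie, DESeq2 and the build GRCm39, and coordinates are given as deposited. The signal column the authors deposited averages, over the 6 mice of a diet, counts divided by size factors. The authors also deposited the mean of each group on a log2 scale of a log2 level. Once undone, it followed the log2 of the mean count with a slope of 1.000 on each diet. The fold changes, standard errors, Wald statistics and p-values in the tables are the authors' own comparison of genotypes and were not used. Values of single mice were not analysed here.

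Group means were undone to log2 levels and scaled to a sum of 1000000 per diet. Differences carry the range that rounding to 2 decimals allows (0.005 either way). The excess is the log2 of the mean count over the mean of both group levels, less its median in genes with at least 500 counts, 3.20 on chow and 3.29 on the HFD. Tests on counts of single mice had been planned in case the tables held them, and could not be fitted. Exon lengths came from GENCODE M21 by gene identifier (99.8% of genes kept). Promoter windows came from RefSeq on GRCm38.p6, whose coordinates were not mixed with those of the tables. The 6 genes and all lists were chosen with earlier results of these data known. Named were the 6 genes, *Gpr75*, up to 3 genes per list with the largest HFD difference and the 3 genes nearest to each of the 6. One gene that this rule names is not reported here. Relatives, partners and *Aspa*, *Bcan*, *Timp3*, *Enpp4*, *Enpp5* and *Kl* were added after their values were seen. Steps were tested on simulated data and run with numpy 2.4.6, pandas 2.3.3 and matplotlib 3.10.9 under Python 3.11.15.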

Additional observations from a re-analysis of the deposited data

How the results depend on the processing

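Taking away the median of all genes kept, or scaling groups to the same summed level, shifted the differences by 0.00 on each diet, so neither bears on stability. The ends of rounding give the ranges printed above. The HFD-minus-chow difference of *Ankib1* reached 0.00 at one end. The scaling, the ends of rounding and other folds for the 6 genes were chosen after seeing the data. Asking that WT lie at least 5% above *Gpr75*-/- in place of 10%, 6 of the 6 genes were lower on the HFD and 5 on chow, against 21.1% and 26.7% of all genes kept. Asking 20%, 3 and 0 were, against 3.47% and 4.92%. Of the 108 relatives, 11 were lower on the HFD at 10%, 21 at 5% and 3 at 20%. On chow 13 were lower at 10%, 35 at 5% and 5 at 20%. With a mean of at least 100 counts, 98 relatives were left, of which 8 were lower on chow at 10% and 10 on the HFD, against 10.5% and 7.49% of all genes left. No filter and protein-coding genes alone left these counts as they were. Levels set on normalized counts gave the same differences by construction and were not run. No paired analysis was possible because the tables hold group means, and for the same reason no mouse could be left out. Group means alone do not show whether a difference exceeds the spread between mice.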
